A study of Apis mellifera ligustica with 11 samples.

Results

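Vitellogenin, the hexamerins, the apolipophorins and the transferrins are proteins that insects carry in the haemolymph, and their transcripts were followed here in honeybee brain tissue around exposure to the pyrethroid fluvalinate. The genes were chosen by name: rows with the symbol A4 or Vg, or a description containing vitellogenin, hexamerin, apolipophorin or transferrin and not the word receptor. This rule was met by 13 of 9974 rows deposited. For 2 of them, LOC410424 and LOC413080, the match is only the word acetyl-transferring in the names of a kinase and a phosphatase of pyruvate dehydrogenase, so they are not carrier proteins and are kept apart below. The other 11 are 2 vitellogenins (Vg, LOC726783), 4 hexamerins (Hex70a, HEX70b, Hex70c, Hex110), 2 apolipophorins (A4, LOC408961) and 3 transferrins (Tsf1, LOC413167, LOC726601).

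Vitellogenin is the yolk protein precursor of insects, a large lipoprotein made mainly in the fat body. In worker honeybees, which rarely lay eggs, it is known for its link to nursing, ageing and juvenile hormone, and the protein has also been described in glial cells of the bee brain. Hexamerins are storage proteins that larvae lay up as a source of amino acids. Apolipophorins form the lipophorin particle that carries lipid between tissues, with apolipophorin I and II as its scaffold and apolipophorin III, in other insects, as an exchangeable subunit that joins when much lipid is loaded. Transferrins bind iron.

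The libraries are from brains of Apis mellifera ligustica, the Italian honeybee: 3 from 1 day before exposure, 2 from day 10 (replicates 2 and 3), 3 from day 20 and 3 from day 30 after exposure. Fluvalinate was given at the dose normally used on honeybees, with mite treatment repeated every 7 days per the labels, and royal jelly glands and pigments were taken off the brains. No unexposed libraries of days 10 to 30 were analysed here, so exposure and elapsed time cannot be told apart, and the labels describe a control and a test set of bees, which may also separate the libraries before exposure from the rest. Nothing in the labels says that replicates came from separate colonies, and the p-values therefore reflect the spread among these libraries, which may be technical. In bulk tissue, fewer cells of a type and less RNA per cell cannot be told apart.

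The values are FPKM, fragment counts scaled to transcript length and to the mapped total, and can be compared between genes because they are per length. The number of reads behind them is unknown. Summed FPKM ranged from 264416 to 468358 per library, and Mrjp1 to Mrjp9, genes of the major royal jelly proteins, made up between 1.52% and 27.0% of it. Changes were tested with limma on log2(FPKM + 1) for the 7830 genes that averaged 1 FPKM or more, with p-values adjusted over all of them. The median gene lay at -0.18 (log2) at day 10 and at -0.11 at day 20, against before exposure, and at 0.22 at day 30 against day 10. Each log2 change is for that reason stated as its distance from the median gene, unless said to be as deposited, while the p-values test the changes as deposited.

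Tsf1 dominated this group of genes in the brain. Its mean over the 11 libraries was 1868 FPKM, rank 15 among all genes of the table, and it made up between 61.9% and 97.1% of the summed FPKM of the 11 carrier genes in a library. A4 followed at 163 FPKM (rank 238), Vg at 27.8 FPKM (rank 1843) and LOC413167 at 15.3 FPKM. HEX70b (11.2 FPKM), LOC726783 (9.69 FPKM), Hex70a (8.55 FPKM), LOC408961 (6.26 FPKM) and Hex110 (3.48 FPKM) were low. LOC726601 and Hex70c stayed below a mean of 1 FPKM, so 9 of the 11 were tested. The 11 together made up between 0.436% and 0.851% of all FPKM in a library.

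**Figure D1:**
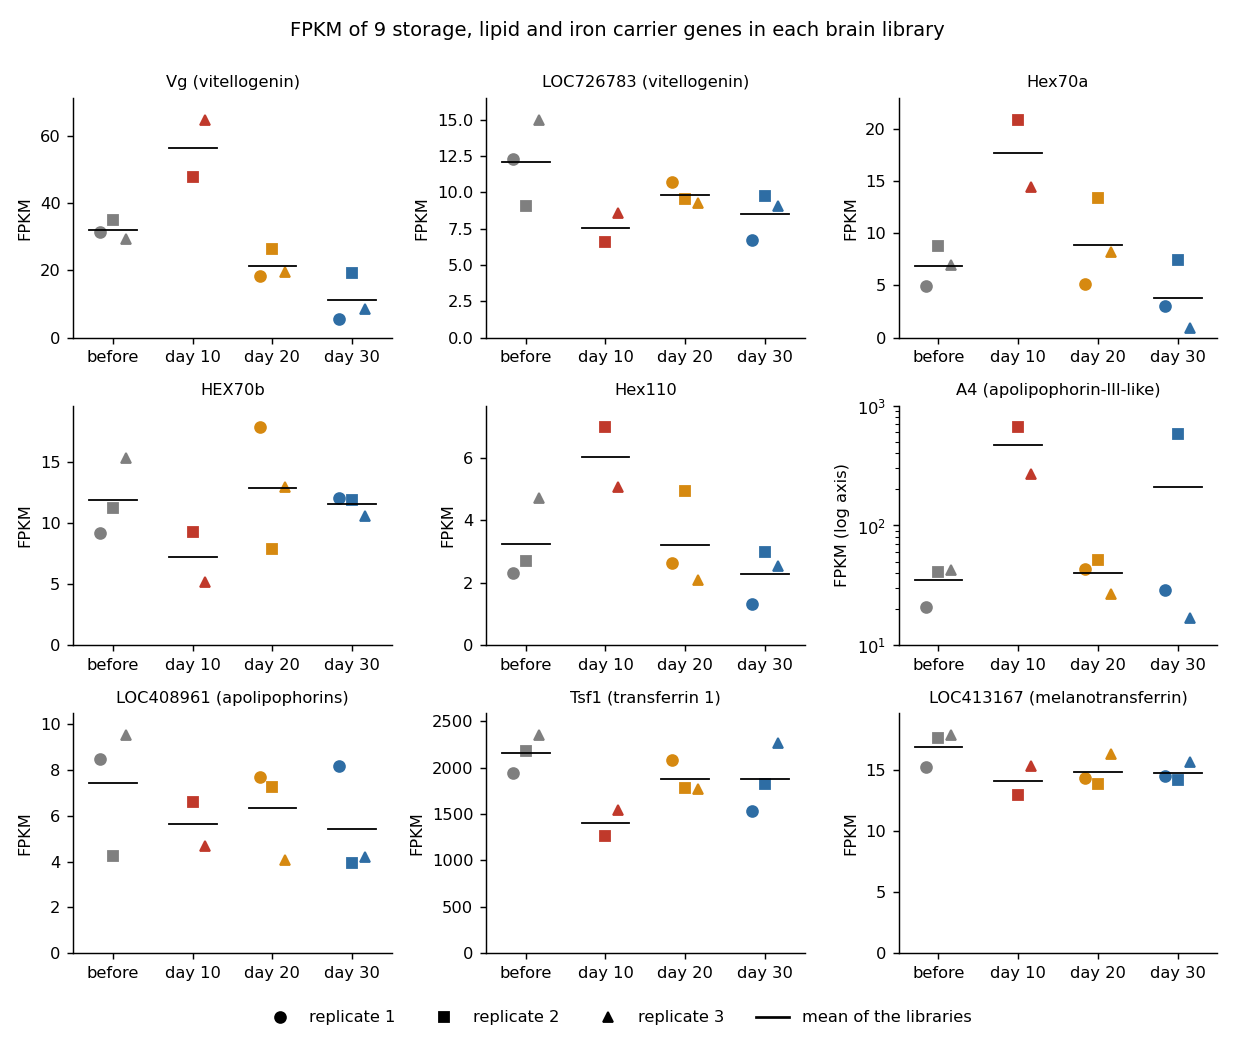
FPKM of the 9 tested carrier genes in each of the 11 brain libraries, by sampling time, with the replicate number shown by the shape of the symbol and a line at the mean of each time. The axis of A4 is logarithmic and the others start at 0. Vg is highest at day 10 and lowest at day 30, and A4 holds 270 FPKM or more in 3 libraries and 51.4 FPKM or less in the other 8.

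At day 10 against before exposure, 1 of the 9 genes passed, A4, which was higher. Of all 7830 genes 19.2% passed in this comparison, 2.22% higher and 16.9% lower. At an unadjusted p of 0.05, 7 of the 9 and 2631 of all genes passed. With libraries scaled by median of ratios, 41.1% of the genes called were higher, against 11.6% as deposited, and none of the 9 passed. The median log2 change of the 9 as deposited was -0.24, beside -0.18 for all genes. Day 20 and day 30, each against before exposure, had none of the 9 past the threshold with limma, and 0% of all genes passed either comparison. At an unadjusted p of 0.05 these were 0 and 2 of the 9, beside 774 and 562 of all genes. Between exposed days, 2 of the 9 passed at day 30 against day 10, Vg and Hex70a, both lower, where 10.8% of all genes passed, 9.41% higher and 1.37% lower. The share of higher genes among those called was 87.3% as deposited and 25% with median-of-ratios scaling, under which Vg alone of the 9 passed. The median log2 change of the 9 as deposited was -0.09, beside 0.22 for all genes, and 4 of the 9 and 2314 of all genes were at an unadjusted p of 0.05. None of the 9 passed at day 20 against day 10, with 0.102% of all genes called, 0.0255% higher and 0.0766% lower (4 of the 9 and 1627 of all genes at an unadjusted p of 0.05). None passed at day 30 against day 20 either, with 0% of all genes called (2 of the 9 and 503 of all genes at an unadjusted p of 0.05). In limma's F-test over the 4 times, Vg alone of the 9 passed, where 6.74% of all genes did. Comparisons that share a group of libraries are not independent of each other.

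**Figure D2:**
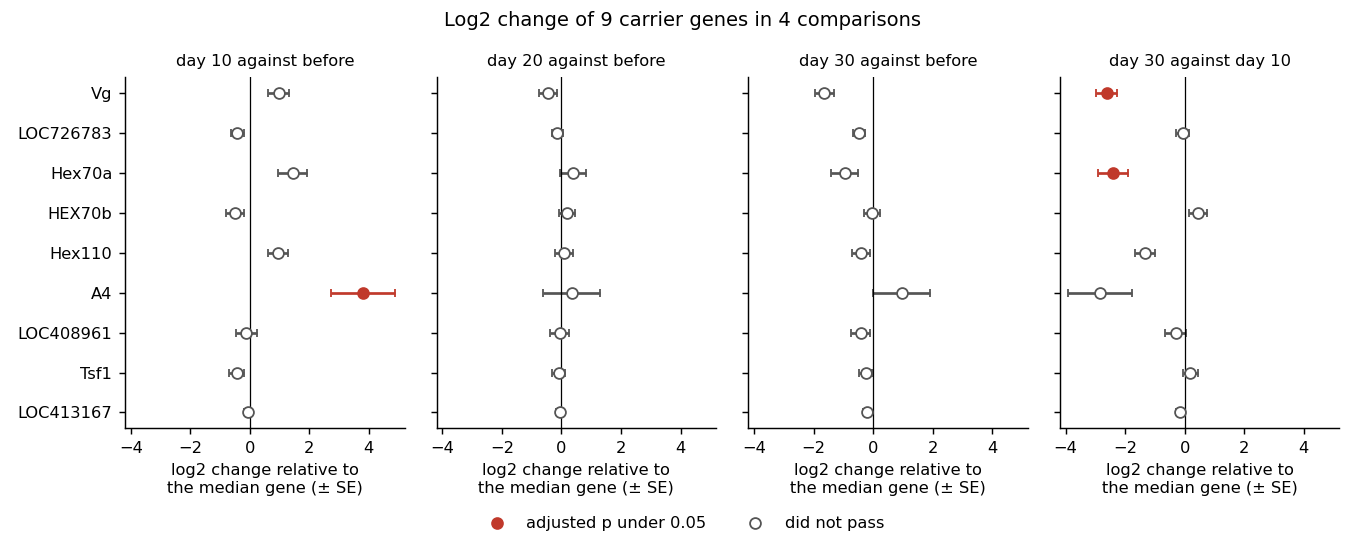
Log2 change relative to the median gene, with its standard error, of the 9 tested carrier genes in 4 comparisons, where filled red points passed an adjusted p of 0.05 in limma. A4 at day 10 against before exposure (3.81) and Vg (-2.61) and Hex70a (-2.40) at day 30 against day 10 passed.

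Vg, the vitellogenin gene proper, was most abundant at day 10 and least at day 30. It stood at 31.4, 35.0 and 29.4 FPKM before exposure, at 47.8 and 65.0 FPKM at day 10, at 18.4, 26.4 and 19.6 FPKM at day 20, with 5.44, 19.1 and 8.61 FPKM at day 30. The libraries of day 10, of before exposure and of day 20 formed 3 separate ranges in that falling order, and day 30 overlapped day 20 only through replicate 2. Vg averaged 11.1 ± 7.17 FPKM at day 30 (SD, n = 3), against 56.4 ± 12.1 FPKM at day 10 (SD, n = 2). This was a log2 change of -2.61 ± 0.35 (SE) with limma adjusted p = 0.0157, rank 9 by p among the 7830 genes in this comparison. The F-test over the 4 times gave adjusted p = 0.027 in limma, with rank 26 among all genes.

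None of the other steps of Vg passed in the fit of all 4 times. Against before exposure, at 31.9 ± 2.83 FPKM (SD, n = 3), the log2 change of Vg was 0.97 ± 0.35 (SE) at day 10 (limma adjusted p = 0.139), -0.45 ± 0.32 at day 20 (adjusted p = 0.599) and -1.64 ± 0.32 at day 30 (adjusted p = 0.149). At day 30 against day 20 it was -1.18 ± 0.32 (limma adjusted p = 0.651). The neighbours in the order of its levels therefore do not differ past the threshold. How many of all genes had libraries that did not overlap between times was not counted. The call at day 30 against day 10 was lost without day 10 replicate 2 (limma adjusted p = 0.144) or day 30 replicate 3 (0.081), and with only the 2 groups in the fit (0.0802). The F-test was lost without day 10 replicate 2 (adjusted p = 0.16), day 20 replicate 3 (0.0507) or before-exposure replicate 3 (0.0608), and without the mean-variance trend (0.0522). Without day 30 replicate 2 the change of Vg at day 30 against before exposure was -2.15 and passed in limma (adjusted p = 0.00482), as did day 10 against before exposure (0.0228) and day 20 against day 10 (-1.44 with all libraries, adjusted p = 0.0948, and 0.016 without it). These last 2 also passed with only the 2 groups in the fit (0.0269 and 0.0361).

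LOC726783, the other gene described as vitellogenin, did not follow Vg. It stood at 12.3, 9.05 and 15.0 FPKM before exposure, at 6.55 and 8.56 FPKM at day 10, at 10.7, 9.55 and 9.29 FPKM at day 20, with 6.73, 9.74 and 9.08 FPKM at day 30. Its lowest library was at day 10, where Vg was highest. The log2 change at day 10 against before exposure was -0.42 ± 0.22 (SE, limma adjusted p = 0.0726), and the libraries of the 2 groups did not overlap. It passed without before-exposure replicate 2 (limma adjusted p = 0.0318) or day 30 replicate 1 (0.0486). Vg was 7.30 and 7.59 times as abundant as LOC726783 in the day 10 libraries, against 1.96 to 3.86 times before exposure, and 0.808 to 1.96 times at day 30.

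Hex70a was the hexamerin whose level varied most. It stood at 4.91, 8.76 and 6.93 FPKM before exposure, at 20.9 and 14.4 FPKM at day 10, at 5.14, 13.4 and 8.20 FPKM at day 20, with 3.05, 7.41 and 0.94 FPKM at day 30. The day 10 libraries lay above all others, and the ranges of the other 3 times overlapped. Hex70a averaged 3.80 ± 3.30 FPKM at day 30 (SD, n = 3), against 17.7 ± 4.57 FPKM at day 10 (SD, n = 2), a log2 change of -2.40 ± 0.50 (SE, limma adjusted p = 0.031). This call was lost without day 10 replicate 2 (limma adjusted p = 0.405), day 30 replicate 1 (0.0785) or day 30 replicate 3 (0.102), with median-of-ratios scaling (0.0594) and with only the 2 groups in the fit (0.115). At day 10 against before exposure, 6.87 ± 1.93 FPKM (SD, n = 3), the log2 change was 1.43 ± 0.50 (SE) and did not pass (limma adjusted p = 0.102). It passed there without day 30 replicate 2 (adjusted p = 0.039) or day 30 replicate 3 (0.0441), and with only the 2 groups in the fit (0.0219).

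Hex110, a longer hexamerin, had its highest 2 values in the same 2 libraries. It stood at 2.32, 2.71 and 4.72 FPKM before exposure, at 6.98 and 5.07 FPKM at day 10, at 2.65, 4.94 and 2.08 FPKM at day 20, with 1.31, 2.98 and 2.55 FPKM at day 30. The day 10 libraries lay above those of every other time, closely so for before-exposure replicate 3 and day 20 replicate 2. The log2 change was -1.34 ± 0.33 (SE) at day 30 against day 10, just short of the threshold with limma adjusted p = 0.0511, and 0.93 ± 0.33 at day 10 against before exposure (adjusted p = 0.136). Without day 30 replicate 2 the first of these was -1.56 and passed (adjusted p = 0.0358).

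HEX70b did not share this pattern, although in RefSeq's annotation of the assembly Amel_HAv3.1 it lies between Hex70a and Hex70c as their direct protein-coding neighbour. HEX70b stood at 9.21, 11.3 and 15.4 FPKM before exposure, at 9.29 and 5.17 FPKM at day 10, at 17.9, 7.89 and 13.0 FPKM at day 20, with 12.1, 12.0 and 10.6 FPKM at day 30. Its lowest value was in day 10 replicate 3, and its groups overlapped except for day 30 and day 10. No comparison of HEX70b passed, with limma adjusted p = 0.144 at day 10 against before exposure and 0.175 at day 30 against day 10. Hex70a was 2.25 and 2.79 times as abundant as HEX70b in the day 10 libraries, against 0.451 to 0.778 times before exposure. At day 30 this ratio was 0.0887 to 0.620. Hex70c, the third of these neighbours, was listed at 0, 0.05 and 0.03 FPKM before exposure, at 0.10 and 0.03 at day 10, at 0.08, 0.04 and 0 at day 20, with 0.05, 0.04 and 0 at day 30. These values are at the limit of the table's 2 decimals. How the authors' pipeline divided reads among similar hexamerin transcripts is not given in the sources used here.

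A4, the apolipophorin-III-like gene, was high in 3 libraries and low in the other 8. It stood at 20.8, 41.0 and 42.9 FPKM before exposure, at 667 and 270 FPKM at day 10, at 43.6, 51.4 and 26.6 FPKM at day 20, with 29.2, 582 and 16.9 FPKM at day 30. Both day 10 libraries and day 30 replicate 2 thus lay far above the rest, of which the highest was day 20 replicate 2. A4 averaged 468 ± 281 FPKM at day 10 (SD, n = 2), against 34.9 ± 12.3 FPKM before exposure (SD, n = 3). This ratio of means was 13.4, with a log2 change of 3.81 ± 1.07 (SE) and limma adjusted p = 0.0339. The call was lost without any of the 5 libraries compared, in turn, with limma adjusted p between 0.0523 (without day 10 replicate 3) and 0.323 (without day 10 replicate 2). It was also lost with median-of-ratios scaling (0.0574), with quantile normalization (0.0546) and with no filter on low values (0.0593), while the change stayed between 3.10 and 4.52.

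At day 20 A4 averaged 40.5 ± 12.7 FPKM (SD, n = 3), against 34.9 ± 12.3 FPKM before exposure, with a log2 change of 0.34 ± 0.96 (SE, limma adjusted p = 0.951). At day 30 the 3 libraries spread between 16.9 and 582 FPKM, and the log2 change against before exposure was 0.96 ± 0.96 (SE, limma adjusted p = 0.824). The sign of this change rests on day 30 replicate 2, without which it was -0.64 (adjusted p = 0.669). At day 30 against day 10 it was -2.86 ± 1.07 (SE, limma adjusted p = 0.124). Without day 30 replicate 2 that change was -4.47 and passed (adjusted p = 0.00119).

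LOC408961, described as apolipophorins, the scaffold of the lipophorin particle, did not show the pattern of A4. It stood at 8.48, 4.25 and 9.52 FPKM before exposure, at 6.61 and 4.67 FPKM at day 10, at 7.68, 7.27 and 4.06 FPKM at day 20, with 8.17, 3.95 and 4.18 FPKM at day 30. Its groups overlapped in all 6 comparisons, and the smallest limma adjusted p was 0.611. In the 3 libraries with high A4 its values were 6.61, 4.67 and 3.95 FPKM. A4 was 101 and 57.8 times as abundant as LOC408961 at day 10, against 2.45 to 9.65 times before exposure, and 147 times in day 30 replicate 2.

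Tsf1, which encodes the iron-binding transferrin 1, was the steadiest of the abundant carriers. It stood at 1945, 2180 and 2351 FPKM before exposure, at 1266 and 1547 FPKM at day 10, at 2079, 1785 and 1768 FPKM at day 20, with 1535, 1820 and 2268 FPKM at day 30. Its highest and lowest libraries differed 1.86-fold. Tsf1 averaged 1406 ± 199 FPKM at day 10 (SD, n = 2), against 2159 ± 204 FPKM before exposure (SD, n = 3), and these libraries did not overlap. The log2 change was -0.44 ± 0.25 (SE) and did not pass (limma adjusted p = 0.0983). It passed without the mean-variance trend (0.0409) and with quantile normalization (0.032), which replaces each library's highest values by common ones and gave a change of -1.20.

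LOC413167, described as melanotransferrin, which in mammals is a transferrin relative held at the cell membrane, varied least of the 9 genes. It ranged from 13.0 FPKM in day 10 replicate 2 to 17.9 FPKM in before-exposure replicate 3, a 1.38-fold range, and its groups overlapped in all 6 comparisons (smallest limma adjusted p = 0.251). LOC726601, described as transferrin, was listed at 0.49, 1.09 and 0 FPKM before exposure, at 0.39 and 0.20 at day 10, at 1.09, 0.34 and 0 at day 20, with 0.20, 0.45 and 0 at day 30. It was listed at 0 in replicate 3 of the 3 times other than day 10. The kinase LOC410424 ranged from 4.49 to 11.5 FPKM and the phosphatase LOC413080 from 6.06 to 9.26 FPKM, and neither passed in any comparison (smallest limma adjusted p = 0.29 and 0.465).

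**Figure D3:**
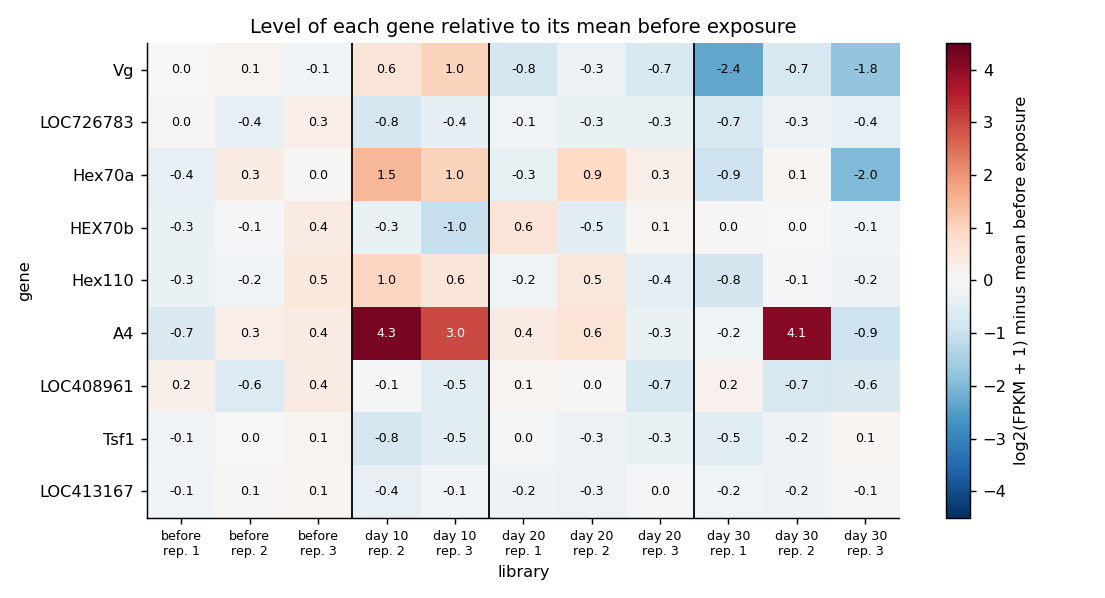
Difference of log2(FPKM + 1) in each library from the gene's mean before exposure, for the 9 tested carrier genes, with libraries grouped by sampling time. A4 stands out at 4.29, 2.98 and 4.09 in day 10 replicates 2 and 3 and day 30 replicate 2, and the lowest value is that of Vg in day 30 replicate 1, at -2.35.

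Single libraries decided several calls. Day 30 replicate 2 was far above the other libraries of its time in A4, and also the highest of them in Vg, Hex70a and, narrowly, LOC726783 and Hex110. Being highest of its time in 5 of the 9 genes is a count that other libraries reached. Before-exposure replicate 3 was highest in 7 of 9 and day 10 replicate 2, of only 2 libraries, in 5 of 9. Such counts leave out the size of the differences, as for A4 at 582 FPKM in day 30 replicate 2, against 29.2 and 16.9 FPKM. Leaving day 30 replicate 2 out of the fit brought 4 of the 9 genes past the threshold at day 30 against day 10, all lower, in place of 2, while calls over all genes became 1240 in place of 844, 189 of them lower in place of 107. At day 10 against before exposure it brought 3 of the 9 in place of 1, with 1562 in place of 1500 over all genes. Leaving out day 10 replicate 2 leaves 1 library at day 10. The calls on these genes at day 10 against before exposure and at day 30 against day 10 were then lost, as nearly all calls over all genes were. Leaving out day 30 replicate 3 left none of the 9 past the threshold at day 30 against day 10, where 0 of all genes passed either (3 of the 9 and 1825 of all genes at an unadjusted p of 0.05).

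Royal jelly is made by the hypopharyngeal gland of the head, and transcripts of that gland were highest at day 10, as several of these genes were. The 12 genes of the gland marker list summed to 13181, 19020 and 10217 FPKM before exposure, 151097 and 106632 FPKM at day 10, 51315, 93857 and 74858 FPKM at day 20, and 7857, 57121 and 15625 FPKM at day 30. The sum was thus highest in the 2 libraries with the most Hex70a and Vg, and day 30 replicate 2 was the highest of its time. All 12 markers were tested, and 7 were higher at day 10 against before exposure (2.22% of all genes). At day 30 against day 10, 4 were lower (1.37% of all genes). With median-of-ratios scaling these counts were 7 and 1. Without day 10 replicate 2 none of the 12 passed in either comparison, and without day 30 replicate 2 the 4 became 8. None of the 12 was at 0 in every library. At day 20, 2 of 3 libraries had gland sums above the 57121 FPKM of day 30 replicate 2, with A4 at 51.4 and 26.6 FPKM, against 582 FPKM in that day 30 library. The gland sums of day 20 all lay above those of before exposure. Vg was lower there, at 18.4, 26.4 and 19.6 FPKM at day 20, against 31.4, 35.0 and 29.4 FPKM before exposure. The Hex70a values of these 2 times overlapped. The part of gland tissue in these results was not tested.

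**Figure D4:**
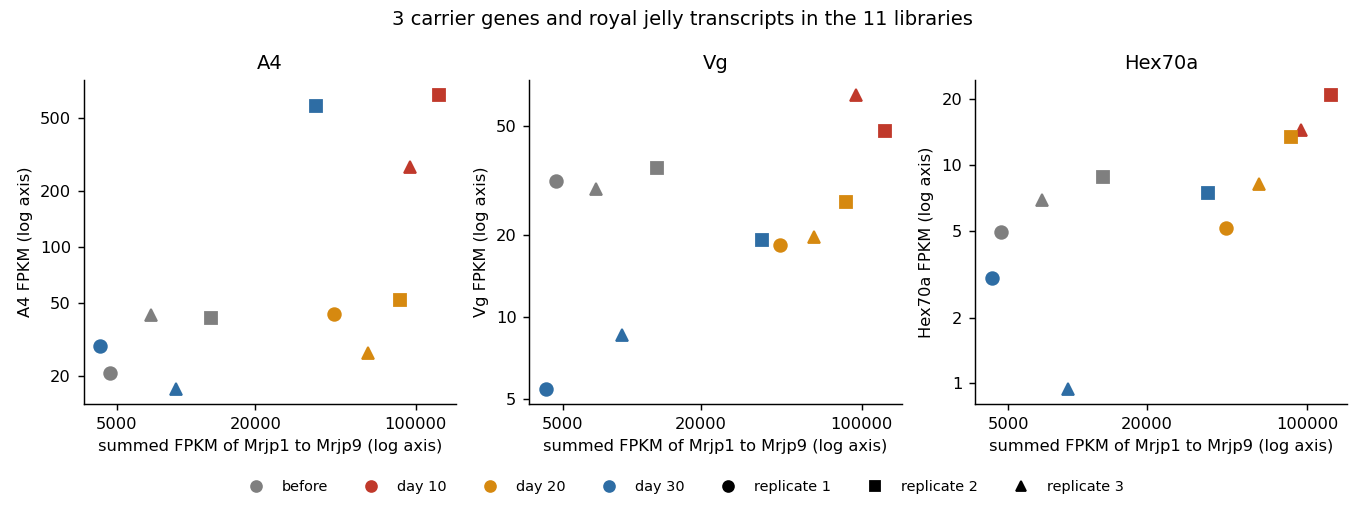
FPKM of A4, Vg and Hex70a against the summed FPKM of Mrjp1 to Mrjp9, with 1 point per library on logarithmic axes, coloured by sampling time and shaped by replicate number. The day 20 libraries hold 44172 to 85223 FPKM of royal jelly transcripts with at most 51.4 FPKM of A4, and the day 30 library at 36838 FPKM holds 582 FPKM.

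Markers of other cell types were read beside these values. Fat body, the usual source of vitellogenin, hexamerins and lipophorin, has few markers that are not carriers themselves. The list of 9 matched by word, 3 of them phenylalanine tRNA ligases that are no fat body markers, summed to 55.7 and 72.0 FPKM at day 10, against 63.3 to 77.1 FPKM before exposure. Limma called 0 of 6 tested genes in any comparison (1 at an unadjusted p of 0.05 at day 10 against before exposure). Most of the sum is LOC409267, glycogen phosphorylase, at 32.2 and 47.6 FPKM at day 10, against 45.9, 54.3 and 46.1 FPKM before exposure. The sum therefore says little about the scarcer genes. LOC100578428, a lipid storage droplet protein, was at 1.42 and 2.55 FPKM at day 10, against 1.00, 2.90 and 1.04 FPKM before exposure. Among the defining genes of the list, Akhr, the adipokinetic hormone receptor, was at 0.40 and 0.54 FPKM at day 10, against 1.39, 0.06 and 0.79 FPKM before exposure. Vhdl, the larval very high density lipoprotein, was at 0.34 and 0.31 FPKM at day 10, against 0.40, 0.44 and 0.41 FPKM before exposure. The list also holds 2 enzymes of tyrosine breakdown. LOC725400, 4-hydroxyphenylpyruvate dioxygenase, was at 4.36 and 2.33 FPKM at day 10, against 2.23, 0.74 and 0.84 FPKM before exposure, without overlap and with limma adjusted p = 0.0548. LOC551465, homogentisate 1,2-dioxygenase, was at 1.44 and 0.33 FPKM at day 10, against 0.24, 0.35 and 0.77 FPKM before exposure. Akhr, Vhdl and LOC551465 did not reach a mean of 1 FPKM over the libraries and were not tested. The part of fat body tissue in the results was not tested.

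Of 7 tested haemocyte markers, 1 was higher and 1 lower at day 10 against before exposure, and their list summed to 192 and 194 FPKM at day 10, against 152 to 239 FPKM before exposure. Of 12 neuron markers 9 were lower and none higher, with sums of 363 and 495 FPKM at day 10, against 760 to 843 FPKM before exposure. Of 7 glial markers 3 were lower, of 27 muscle markers 2 and of 16 photoreceptor markers 2, and none of these was higher. Of all genes 16.9% were lower and 2.22% higher in this comparison, so the muscle and photoreceptor counts lie below the share over all genes. None of the markers of these lists passed without day 10 replicate 2, and with median-of-ratios scaling 8 neuron and 0 glial markers were lower. The sums at day 10 were 1655 and 2113 FPKM for glia, 902 and 1056 FPKM for muscle and 872 and 935 FPKM for photoreceptors. Before exposure they were 2204 to 3002 FPKM for glia, 833 to 1130 FPKM for muscle and 648 to 986 FPKM for photoreceptors. No marker of these lists was at 0 in all libraries. Most of the glial sum is GlnS, glutamine synthetase, at 1560 and 1997 FPKM at day 10, against 2835, 2057 and 2482 FPKM before exposure. Lists matched by word also hold genes whose names do not tie them to the tissue. Examples are LOC412092 (a non-muscle myosin heavy chain) among muscle markers and LOC409608 (a peroxidasin) among haemocyte markers. The photoreceptor list holds LOC408559 (a retinal dehydrogenase) and LOC724328 (an arrestin domain-containing protein). The neuron list holds LOC552555 (YKT6, described as a synaptobrevin homolog). The counts and sums of these lists are therefore not those of tissue-specific genes alone. The part of changed tissue make-up in the results was not tested.

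Among genes with a description other than uncharacterized, those whose profile was most like that of A4 over the 11 libraries share its 3 high libraries. They were LOC413739 (synaptic vesicle glycoprotein 2C, a transporter-like protein, r = 0.96), LOC409666 (an ABC transporter of family G, r = 0.96), ACSF2 (acyl-CoA synthetase family member 2, which by its family activates fatty acids, r = 0.96) and LOC112935903 (a cytochrome P450 described as 6a14-like, r = 0.96). ACSF2 stood at 40.8 and 22.6 FPKM in day 10 replicates 2 and 3 and at 25.2 FPKM in day 30 replicate 2, and between 3.83 and 6.79 FPKM in the other 8 libraries. LOC112935903 stood at 16.6, 10.9 and 17.0 FPKM in the same 3 libraries and at most at 0.87 FPKM elsewhere.

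For Vg the most alike genes were LOC411100 (an FGGY carbohydrate kinase, r = 0.92), LOC410171 (the actin cross-linker filamin-A, r = 0.92), LOC552024 (myo-inositol 2-dehydrogenase, r = 0.90) and LOC410492 (cytochrome P450 9e2, r = 0.90). LOC410492 averaged highest among these and ranged from 41.4 FPKM in day 30 replicate 1 to 89.1 FPKM in day 10 replicate 2. For HEX70b, the hexamerin with the highest mean, they were LOC100576467 (14 kDa phosphohistidine phosphatase, r = 0.95), LOC100577334 (odorant receptor 33, r = 0.90), LOC409442 (NipSnap, r = 0.89) and LOC408453 (cytochrome P450 9e2, r = 0.89). For Tsf1 they were LOC100578927 (the transcriptional repressor YY1, r = 0.98), LOC551895 (serine/threonine kinase 17A, r = 0.97), LOC412948 (delta-1-pyrroline-5-carboxylate synthase, r = 0.97) and LOC408458 (a Mediator subunit, r = 0.97). These are Pearson correlations of log2(FPKM + 1) over 11 libraries that share their composition, and are given as a description. They are the highest among tested genes outside the 13 rows of the rule whose description is neither blank nor uncharacterized.

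Vg was most like Hex70a (r = 0.81 over the 11 libraries) and Hex110 (r = 0.75), while its correlation with LOC726783 was 0.17 and with HEX70b -0.49. Hex70a and Hex110 had r = 0.72, and Hex70a and HEX70b -0.41. Tsf1 was nearest to LOC726783 (r = 0.76) and LOC413167 (r = 0.71) and ran against A4 (r = -0.61). All of these share the libraries and their composition and are descriptions.

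Of 9 tested genes matched by words for uptake receptors, 0 passed in any comparison with limma (2 at an unadjusted p of 0.05 at day 10 against before exposure, beside 2631 of all genes). The words also matched genes not named as receptors of these carriers, such as LOC551021 (low-density lipoprotein receptor-related protein 6) and LOC552297 (a receptor adapter protein). The median log2 change of the list at day 10 against before exposure was -0.23 as deposited, beside -0.18 for all genes. LOC552358 (low-density lipoprotein receptor-related protein 2) was the most abundant, at 121 and 134 FPKM at day 10, against 156, 144 and 167 FPKM before exposure (limma adjusted p = 0.189). LOC409228 (scavenger receptor class B member 1) was at 54.6 and 41.7 FPKM at day 10, against 40.7, 36.7 and 40.8 FPKM before exposure (adjusted p = 0.198). LOC412401, the lipophorin receptor, was at 23.9 and 25.6 FPKM at day 10, against 24.6, 37.1 and 26.9 FPKM before exposure (adjusted p = 0.389). None of these 3 differed past the threshold. Without day 30 replicate 1, 2 genes of the list passed as lower at day 10. With no filter 1 of 14 did, and with a mean of at least 5 FPKM 1 of 5. The vitellogenin receptor LOC725920 was low, between 0.50 FPKM in day 20 replicate 1 and 1.14 FPKM in before-exposure replicate 1, and its mean was below the filter.

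Genes of lipid mobilisation and intracellular lipid carriage moved singly. Of 37 tested, many of them phospholipases, 1 was higher and 3 lower at day 10 against before exposure (2.22% and 16.9% over all genes), with a median log2 change of -0.08 as deposited, beside -0.18 for all genes. LOC411272, a putative acyl-CoA-binding protein, rose to 186 and 151 FPKM at day 10, against 37.7, 86.1 and 79.9 FPKM before exposure (log2 change 1.56 ± 0.29 SE, limma adjusted p = 0.00953). Fabp, the fatty acid binding protein, fell to 352 and 377 FPKM at day 10, against 464, 593 and 607 FPKM before exposure (adjusted p = 0.0273). The acidic phospholipase A2 LOC409277 (-0.55 ± 0.20 SE) and the phospholipase ABHD3, LOC551744 (-0.44 ± 0.16 SE), fell as well. The calls on LOC409277, LOC551744 and Fabp were lost with median-of-ratios scaling (limma adjusted p = 0.0624, 0.0888 and 0.1) and without before-exposure replicate 3 (0.0611, 0.0608 and 0.0796). The call on LOC411272 was lost only without day 10 replicate 2 (limma adjusted p = 0.152), and none of the list passed without that library. At day 30 against day 10, LOC412515, a phospholipase B1, was lower (0.33 to 1.78 FPKM at day 30, against 4.32 and 4.66 FPKM at day 10) and LOC409277 was higher. Neither passed there with median-of-ratios scaling, or without day 10 replicate 2, day 30 replicate 1 or day 30 replicate 3.

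Of 12 genes matched for iron handling, which include zinc transporters of the ZIP family, 1 was lower at day 10 against before exposure and 0 higher (16.9% and 2.22% over all genes). It was LOC410710 (ZIP13, a log2 change of -0.18 ± 0.11 SE, limma adjusted p = 0.0372). That call was lost under 13 of 19 alternatives, with median-of-ratios scaling (0.42) among them. With that scaling 1 other gene of the list was higher and 0 lower. The ferritins, which store iron, did not pass as deposited. LOC551651, a ferritin subunit, was at 535 and 491 FPKM at day 10, against 456, 552 and 647 FPKM before exposure. LOC551684, described as ferritin heavy polypeptide-like 17, was at 342 and 299 FPKM at day 10, against 182, 262 and 259 FPKM before exposure (limma adjusted p = 0.0663).

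Of 16 tested genes matched by juvenile hormone, ecdysone receptor or insulin terms, 3 were lower and none higher at day 10 against before exposure, a share near the 16.9% of all genes that were lower. Juvenile hormone, ecdysone and insulin signals are known to act on vitellogenin, but the words also matched genes that are no hormone signals, such as LOC100577472 (insulin gene enhancer protein ISL-1) and LOC410398 (an mRNA-binding protein). The 3 were Ecr, the ecdysone receptor (11.01 and 8.07 FPKM at day 10, against 18.8, 13.0 and 17.7 FPKM before exposure, limma adjusted p = 0.0301), and the insulin-type receptors LOC411297 (adjusted p = 0.0225) and InR-2 (0.0438). None of the 3 passed with median-of-ratios scaling or quantile normalization, nor without day 10 replicate 2, before-exposure replicate 1 or before-exposure replicate 3. At day 30 against day 10, Ecr and its partner Usp, ultraspiracle, were higher (limma adjusted p = 0.0254 and 0.0406), and LOC406152, juvenile hormone epoxide hydrolase 1, which breaks down juvenile hormone, was lower (0.0406). LOC406152 stood at 72.5, 82.0 and 72.2 FPKM at day 30, against 118 and 114 FPKM at day 10. With median-of-ratios scaling LOC406152 alone of these passed, and without day 10 replicate 2, day 30 replicate 1 or day 30 replicate 3 none did. LOC724216, juvenile hormone acid O-methyltransferase, did not pass in any comparison with limma. It stood at 38.3, 46.4 and 50.7 FPKM before exposure and at 16.05 and 32.3 FPKM at day 10. At day 30 LOC724216 stood at 10.45, 9.04 and 14.8 FPKM. None of the genes of the 4 lists passed at day 20 or day 30 against before exposure, where 0% of all genes passed, so this says nothing particular about the lists.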

How the data were processed

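Brain RNA of 11 libraries was measured by Illumina sequencing. The authors deposited FPKM per gene, rounded to 2 decimals, per the file headers. Tools listed per the submitters' processing notes are StringTie, HISAT2 2.1.0 and fastp 0.18.0. Build, annotation and use of strand: not given in the sources used here. The table has 12 FPKM columns, of which 1 was not used because its header, which reads as another day 10 library, matches no sample of the labels used here; day 10 therefore rests on 2 libraries. Low values showed no steps of whole reads, so depth is unknown and no counting error is given. All 9935 NCBI gene numbers matched the RefSeq table of Amel_HAv3.1, and 39 rows carry StringTie identifiers.

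log2(FPKM + 1) was fitted with limma 3.58.1 (R 4.3.3, mean-variance trend, 7 residual degrees of freedom) on 7830 genes, with Benjamini-Hochberg adjustment over all of them and calls under 0.05. The 6 pairs of times and an F-test were read from 1 fit. The fit was tested on simulated data.

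The genes, lists and tests were chosen with earlier results of these data known. Named are all carrier genes, the 4 described genes most like the leading carrier of each family, and up to 3 per list, called ones first (Fabp, the ferritins, the vitellogenin receptor and the marker and word-matched genes given singly fall outside this rule and were named after their values were seen). Alternatives were another pseudocount (0.1), no filter or a mean of at least 5 FPKM, 2 scalings, no trend, only the groups compared, the replicate number as a block, and leaving out each library.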

Additional observations from a re-analysis of the deposited data

Results flagged for a closer look

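The change of Vg against before exposure differed between day 30 and day 10, tested as day 30 against day 10, with a log2 change of -2.61 and limma adjusted p = 0.0157. All 3 day 30 libraries lay below and both day 10 libraries above those of before exposure. The change of Hex70a differed between the same 2 days by -2.40, with limma adjusted p = 0.031. Within groups of 2 or 3 libraries no test of a single outlying library was made.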

How the results depend on the processing

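Recomputed were the log2 changes of the 9 tested genes at an unadjusted p under 0.05 in limma, and some others printed above. Of these 25, 23 kept their direction under all alternatives (19, or 18 for Hex110, which a mean of at least 5 FPKM leaves out). Changes chosen for a small p in the same data seldom turn, so this count is no support for them. The 2 that turned were not chosen by p. A4 at day 30 against before exposure turned to -0.64 without day 30 replicate 2, and lay between -0.64 and 1.92 without single libraries. LOC408961 at day 10 against before exposure, -0.12 as reported, was 0.054 with the replicate block, and lay between -0.47 and 0.15 without single libraries (0.15 without day 10 replicate 3, 0.056 and 0.073 without before-exposure replicates 1 and 3). The count of the 9 genes called at day 10 against before exposure, 1 as reported, was 0 with no filter and with median-of-ratios scaling, 2 without the trend, 3 with only the groups compared, and 0 to 3 without single libraries; with quantile normalization the 1 gene called was Tsf1, lower. At day 20 against day 10 it was 0 as reported, 2 with only the groups compared, and 0 to 2 without single libraries. At day 30 against day 10 it was 2 as reported, 1 with median-of-ratios scaling, 0 with only the groups compared, and 0 to 4 without single libraries. The F-test called 1 as reported, 0 without the trend and 0 to 3 without single libraries, and day 30 against before exposure 0 as reported and 0 to 1 without single libraries. The causes were not tested. With the replicate number as a block the counts were 1, 2 and 1 at day 10 against before exposure, day 30 against day 10 and in the F-test, as reported, while 414 in place of 844 of all genes passed at day 30 against day 10. Of 15 same-numbered pairs of libraries, 3 had correlated deviations above 0.1 (range -0.24 to 0.31, beside -0.31 to 0.24 for other pairs). Deviations within groups of 2 or 3 libraries depend on each other, so whether the numbers pair the libraries cannot be told from this. Over all genes, the 1500 called at day 10 against before exposure were 762 with median-of-ratios scaling, 931 with only the groups compared and 2 without day 10 replicate 2. The 844 called at day 30 against day 10 were 60, 15 and 0, and 0 without day 30 replicate 3. A fit that leaves 1 library at day 10 assumes that it varies like the other groups. Without read counts, the error of the genes below 1 FPKM cannot be given.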
